A study of Mus musculus with 31 samples.

Results

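The genes described here were 36 genes of the unfolded protein response and the integrated stress response, taken from a named list and found by Ensembl identifier in both count tables, which hold 35275 and 54532 gene identifiers. They were placed by hand in 3 groups by the factor or sensor they are best known with: 17 genes of the ATF4 arm, 7 of the XBP1 arm and 12 of the ATF6 arm. XBP1 and ATF6 share many targets, so the last 2 groups are not sharply separated. After a filter on low counts 34 members could be tested in experiment 1 and 35 in experiment 2. The ATF4 target Vldlr was too low to test in both experiments, at no more than 0.732 CPM, and Cth was too low in experiment 1, at no more than 0.682 CPM.

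Cells sense misfolded protein in the endoplasmic reticulum (ER) with a set of membrane sensors. PERK, encoded by Eif2ak3, phosphorylates the initiation factor eIF2, which lowers protein synthesis but favours translation of ATF4, and other eIF2 kinases feed into the same integrated stress response. IRE1, encoded by Ern1, splices the Xbp1 mRNA into the form that codes for the active factor, and ATF6 is cut at the Golgi to release a factor that turns on chaperone genes. Toll-like receptor signalling in macrophages is known to engage parts of these pathways, and several of their factors are controlled after transcription, which mRNA counts do not show.

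RNA was sequenced from macrophages that had been differentiated from bone marrow of male C57BL/6J mice aged 6 to 12 weeks. The differentiation medium was conditioned by L-929 cells, and the treatments were given in serum-free macrophage medium. Overnight treatments were vehicle, the synthetic glucocorticoid dexamethasone (Dex) at 1 µM, the BRD9 bromodomain inhibitor iBRD9 at 3 or 10 µM, the BRD9 degrader dBRD9 at 250 nM, or Dex together with either compound. Lipopolysaccharide (LPS, 100 ng/ml) followed for 3 h, and groups are named by all agents added. Experiment 1 had 7 groups of 3 libraries. They were vehicle without LPS and 6 groups with it: LPS alone, Dex + LPS, each of iBRD9 and dBRD9 with LPS, and each compound with Dex and LPS. Experiment 2 had 5 groups of 2 libraries, all but its vehicle group with LPS and interferon γ (IFNγ): alone, with Dex, with dBRD9, or with both. Which of the iBRD9 doses each library received, and the dose and timing of IFNγ, were not given in the sources used here. Nothing in the labels says whether replicates came from separate mice or cultures, so p-values measure only the spread between these libraries.

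Depth was 19.3 to 29.9 M counts per library in experiment 1 and 14.5 to 17.9 M in experiment 2. The Dex label could be checked in every library: in experiment 1 the glucocorticoid targets Fkbp5 and Tsc22d3 were at 519 to 546 CPM and 137 to 177 CPM with Dex, against 13.0 to 36.6 CPM and 1.64 to 51.3 CPM without it. In experiment 2 Fkbp5 was at 273 to 324 CPM with Dex and 6.30 to 13.5 CPM without it. The 9 macrophage markers summed to 12900 to 27300 CPM in experiment 1 and 12600 to 14600 CPM in experiment 2. Of the plasma cell list, whose cells carry much ER, the sum of 21.8 to 193 CPM in experiment 1 was almost all Sdc1, while Jchain, Mzb1 and Tnfrsf17 stayed at or under 0.224 CPM. The first libraries of Dex + LPS and of Dex + dBRD9 + LPS stood apart in that their deviation from the group mean fell with transcript length. Spearman rho across genes was -0.52 and -0.34, against -0.22 to 0.42 in the other libraries of experiment 1. Counts for several Dex comparisons of experiment 1, and values of some single genes, are therefore also given without these libraries. In experiment 2 rho was -0.47 and 0.47 in the vehicle libraries and 0.374 and -0.374 with Dex + IFNγ + LPS. With 2 libraries per group these values mirror each other, so which library stood apart could not be told.

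Sequences upstream of the start sites are shown first, to place the known elements of these pathways on the members. The 250 bases before the RefSeq start (GRCm38.p6) were available for 32 of the 36 members, and both strands were searched. The ER stress element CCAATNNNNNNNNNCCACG, the binding site of ATF6 with NF-Y, was present before 7 of 32 members (21.9%): Dnajc3 and Syvn1 of the XBP1 arm and Hspa5, Hsp90b1, Calr, Pdia6 and Creld2 of the ATF6 arm. It was present in 0.113% of all 32851 such windows. The related element ERSE-II (ATTGG and CCACG with any 1 base between) was present before Herpud1 only, and in 0.0304% of all windows. Elements that cross the end of a window could not be found. The Herpud1 window ends in all but the last base of an ER stress element, so its absence there was not established. The amino acid response element TGATGNAA, a core to which ATF4 binds with C/EBP partners, was present before Asns, Atf3, Nupr1, Chac1, Vldlr and Herpud1 (18.8% of 32), and in 3.45% of all windows. The letters TGACGTGG, an element bound by spliced XBP1, were before none of the 32 and in 0.563% of all windows. A match describes these letters only and was not tested as a binding site. The windows of Cth, Atf6, Hyou1 and Manf were not analysed here.

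The 6 stretches below are from each arm the 2 members with a match that were called in the most comparisons, with the matched letters in capitals. In the XBP1 arm these are the only 2 with a match, and Hspa5 was shown ahead of Hsp90b1 and Pdia6, with which it tied at 6 comparisons, because it came first in the list. For Syvn1 (chr19:6046326-6046575), Dnajc3 (chr14:118937682-118937931) and Herpud1 (chr8:94386179-94386428), all on the plus strand, the whole window is given. Of the 250-base windows of Asns, Nupr1 and Hspa5, 45, 250 and 120 bases lie in GENCODE M21 exons, so only 30 bases around the match are given. They are at chr6:7693214-7693243 (minus strand), chr7:126625562-126625591 (minus strand) and chr2:34772020-34772049 (plus strand). These stretches lie before the RefSeq start but within the GENCODE bounds of the same gene. In Nupr1 and in the first match of Herpud1 the element reads on the opposite strand.
Asns: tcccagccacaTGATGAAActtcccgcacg
Nupr1: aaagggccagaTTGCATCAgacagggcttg
Syvn1: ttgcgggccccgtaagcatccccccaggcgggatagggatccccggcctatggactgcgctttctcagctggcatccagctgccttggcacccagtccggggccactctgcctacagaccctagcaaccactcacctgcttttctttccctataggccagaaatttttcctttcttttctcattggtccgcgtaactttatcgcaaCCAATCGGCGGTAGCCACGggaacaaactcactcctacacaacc
Dnajc3: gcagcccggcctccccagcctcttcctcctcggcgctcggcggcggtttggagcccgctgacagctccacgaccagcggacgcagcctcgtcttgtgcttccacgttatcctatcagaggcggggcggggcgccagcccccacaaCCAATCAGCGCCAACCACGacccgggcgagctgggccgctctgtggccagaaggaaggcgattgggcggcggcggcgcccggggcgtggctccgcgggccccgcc
Herpud1: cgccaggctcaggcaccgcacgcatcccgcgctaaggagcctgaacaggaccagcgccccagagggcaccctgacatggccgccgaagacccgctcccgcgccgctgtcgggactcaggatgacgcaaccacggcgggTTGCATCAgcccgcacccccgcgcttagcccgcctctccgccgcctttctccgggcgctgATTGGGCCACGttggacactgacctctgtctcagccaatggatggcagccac
Hspa5: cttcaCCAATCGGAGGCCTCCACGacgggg

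Levels between genes were compared as CPM per kilobase of exon. In the LPS group of experiment 1 the highest member was Atf3, a stress-induced repressor and activator of the ATF family, at 364, followed by the chaperones Calr at 332 and Hspa5 at 273. The ER folding genes filled most of the upper ranks, with Pdia3 at 151 and Hsp90b1 at 68.0. The sensors were low, with Atf6 at 10.4, Ern1 at 4.02 and Eif2ak3 at 2.32. Trib3, Chac1, Cth and Vldlr, ATF4 targets that are induced in strong stress, were the lowest 4 at 0.615, 0.494, 0.18 and 0.0144. The order began with the same 3 genes in the IFNγ + LPS group of experiment 2, at 429, 267 and 255.

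LPS alone moved the arms unevenly. Nupr1, the eIF2 phosphatase subunit Ppp1r15a, Herpud1 and the main ER chaperone Hspa5 rose, while the sensors Eif2ak3, Ern1 and Atf6 and the pro-apoptotic factor Ddit3 fell. Of 34 members 20 rose and 9 fell against vehicle, where 36.1% of all 12662 genes tested rose and 39.3% fell, so the share that fell was below and the share that rose above that of all genes. The median log2 fold change was 0.24 for the members and -0.05 for all genes. By arm, 9 rose and 4 fell of 15 in the ATF4 arm (median 0.41), 3 and 2 of 7 in the XBP1 arm (0.05), and 8 and 3 of 12 in the ATF6 arm (0.21). In bulk RNA, more cells with a transcript and more transcript per cell cannot be told apart. Marker sums moved with LPS too: macrophage markers from 12900 to 13100 CPM to 16100 to 16800 CPM, the plasma cell list, through Sdc1, from 68.2 to 71.6 CPM to 182 to 193 CPM, and neutrophil markers from 10.8 to 13.2 CPM to 17.0 to 24.1 CPM. Their part in the result was not tested.

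Among the ATF4 arm genes, Nupr1, a small stress-induced chromatin protein, was at 1.49, 0.960 and 1.35 CPM in the vehicle libraries and at 56.2, 55.1 and 52.2 CPM with LPS. The groups were far apart, and the log2 fold change of 5.45 ± 0.18 (SE, n = 3 against 3, adjusted p 4.8e-18) corresponds to 43.6-fold. Ppp1r15a (GADD34), the phosphatase subunit that removes the phosphate from eIF2, was at 21.9, 21.0 and 20.5 CPM and rose to 265, 275 and 269 CPM (log2 fold change 3.67 ± 0.072, adjusted p 4.5e-22). Atf4 itself rose from 111, 110 and 103 CPM to 205, 201 and 190 CPM (0.88 ± 0.058, adjusted p 3.4e-12). All vehicle libraries of these 3 genes lay below all LPS libraries, and libraries of both groups did not overlap for 81.5% of all genes. Asns, asparagine synthetase, rose by 1.05 ± 0.099, Atf5 by 0.79 ± 0.11, Phgdh, the first enzyme of serine synthesis, by 0.95 ± 0.17, and Chac1, which degrades glutathione, by 1.76 ± 0.39 from a low level (0.218 to 0.262 CPM in vehicle). In the opposite direction, Trib3, an inhibitor of AKT and of ATF4 output, fell by 1.44 on the log2 scale (SE 0.18), Ddit3 (CHOP) fell by 0.84 (SE 0.13) and Sesn2, a stress-induced inhibitor of mTORC1, fell by 0.51 (SE 0.083).

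Of the ER genes, Herpud1, a part of the ER degradation machinery whose window holds both kinds of element, rose from 24.0, 20.9 and 22.3 CPM to 133, 131 and 120 CPM (log2 fold change 2.52 ± 0.059, adjusted p 1.1e-20). Hspa5 (BiP), the central ER chaperone, rose from 485, 485 and 486 CPM to 1160 CPM in each LPS library (1.25 ± 0.037, adjusted p 8.1e-19). Syvn1 (HRD1), the ER ubiquitin ligase, rose by 0.88 ± 0.054, Manf by 0.76 ± 0.074 and Xbp1 by 0.52 ± 0.044. The kinase and sensor genes went down: Eif2ak3 fell from 31.3, 28.7 and 28.3 CPM to 14.3, 13.1 and 14.4 CPM (-1.08 ± 0.078, adjusted p 1.8e-11), Ern1 fell by 0.58 (SE 0.11) and Atf6 fell by 0.43 (SE 0.084). Dnajb9 (ERdj4), a BiP cochaperone and a classic target of spliced XBP1, fell by 0.60 (SE 0.08), and Pdia4, an ER disulfide isomerase, fell by 0.56 (SE 0.064). Sdf2l1 fell by 0.41 (SE 0.082). Dnajc3 (0.05 ± 0.049), Sec61b (-0.02 ± 0.071) and Creld2 (0.11 ± 0.098) did not pass the test.

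Most of the small rises with LPS rest on how the libraries were scaled. When libraries were scaled by their totals alone, without TMM factors, the all-gene median went from -0.05 to -0.56 and the members called became 11 higher and 19 lower. Nupr1, Ppp1r15a, Herpud1 and Hspa5 rose and Trib3, Eif2ak3 and Ddit3 fell under both scalings. The call for Xbp1 was lost (0.01, adjusted p 0.91), and those of 8 called members that rose under TMM changed direction. Hsp90b1 (0.10, adjusted p 0.032) lost its call when any 1 of the 6 libraries was left out (adjusted p 0.05 to 0.093).

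**Figure D1:**
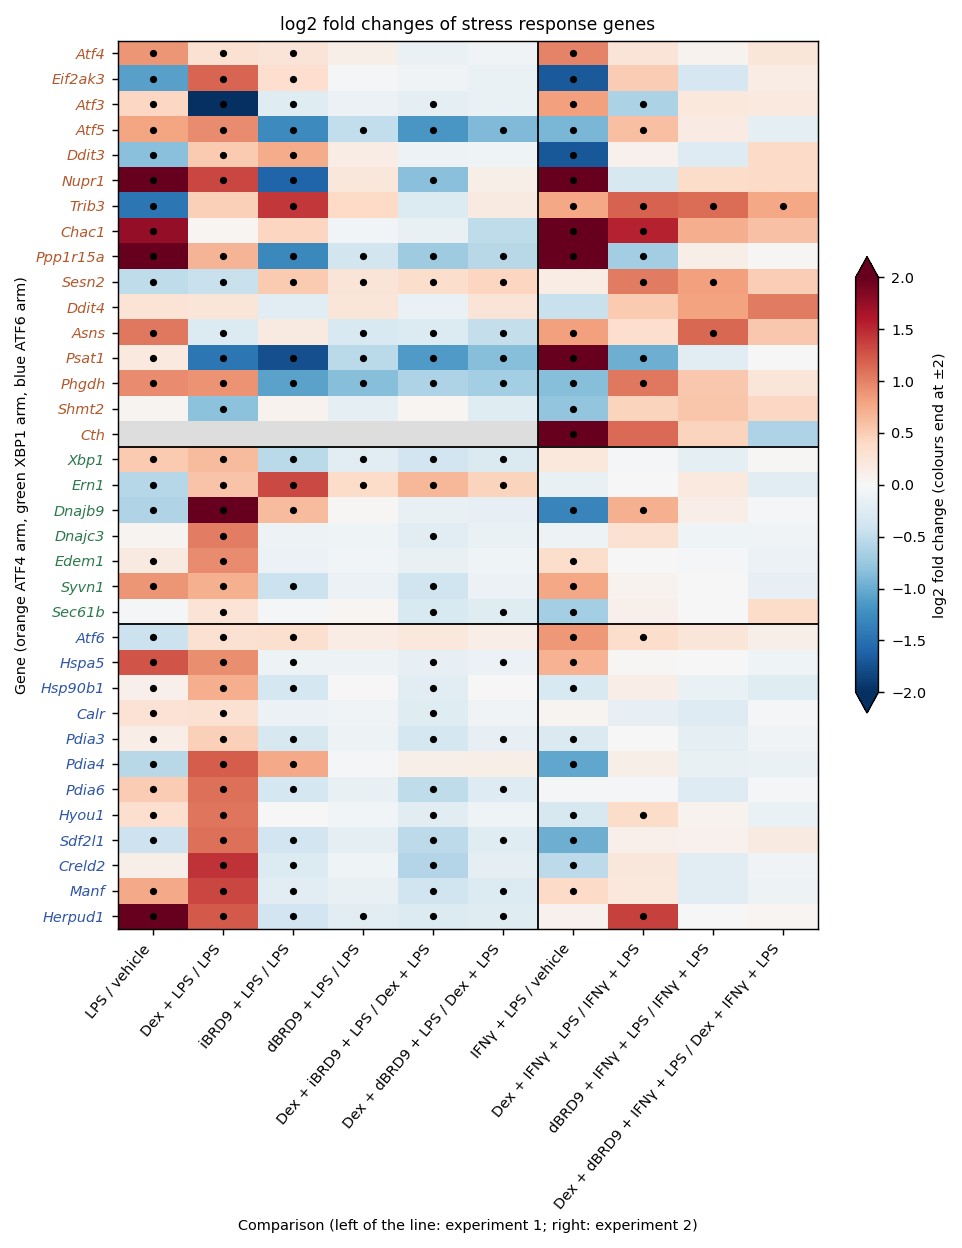
Heat map of log2 fold changes of the tested members (rows, by arm) in comparisons of both experiments (columns). Dots mark called values, grey marks genes not tested, and the colours end at a fixed value on each side of 0. With Dex + LPS against LPS all 7 XBP1 arm genes and all 12 ATF6 arm genes are above 0, while ATF4 arm genes are on both sides.

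With Dex on top of LPS the ER protein-folding genes of the XBP1 and ATF6 arms went up together, all 7 of 7 and 12 of 12, while the ATF4 arm split. Against LPS alone 26 of 34 members rose and 5 fell, where 27.9% of all genes tested rose and 27.5% fell. Median log2 fold changes were 0.72 in the XBP1 arm, 1.08 in the ATF6 arm and 0.31 in the ATF4 arm, against 0.01 for all genes. Libraries of both groups did not overlap for 31 of 34 members, a condition met by 55.7% of all genes. The counts by arm were the same without both libraries that stood apart. The macrophage marker sum moved with Dex as well, from 16100 to 16800 CPM with LPS to 26900 to 27300 CPM, and the plasma cell sum went the other way, from 182 to 193 CPM to 34.9 to 47.1 CPM. Neutrophil markers went from 17.0 to 24.1 CPM to 11.4 to 14.0 CPM. The part of these lists in the rise was not tested.

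Dnajb9, the XBP1 target that LPS had lowered, was at 16.0, 17.8 and 15.3 CPM with LPS and at 64.0, 71.3 and 64.8 CPM with Dex + LPS. This rise of 2.02 ± 0.079 on the log2 scale (adjusted p 1.1e-15), 4.06-fold, was the largest of the members, and the Dex libraries also lay above the vehicle libraries at 23.8 to 25.5 CPM. Hspa5 rose further, from 1160 CPM in each LPS library to 2260, 2180 and 2160 CPM (0.93 ± 0.036, adjusted p 1.1e-15). Of the other XBP1 arm genes Dnajc3, a BiP cochaperone that also restrains PERK, rose by 1.03 ± 0.049 and Edem1, which hands misfolded glycoproteins to degradation, by 0.94 ± 0.065. Syvn1 rose by 0.72 ± 0.053, Xbp1 by 0.63 ± 0.044 and the translocon subunit Sec61b by 0.28 ± 0.071. Ern1 was at 33.0, 32.9 and 32.8 CPM with LPS and 35.3, 54.0 and 58.0 CPM with Dex. Its low value was in the library that stood apart, and its log2 fold change of 0.58 ± 0.11 was 0.77 without it.

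In the ATF6 arm the secreted ER proteins Creld2 and Manf rose most. Creld2 was at 22.5, 23.9 and 26.5 CPM with LPS and 80.0, 61.3 and 55.6 CPM with Dex + LPS (1.44 ± 0.095, adjusted p 1.1e-11), and Manf went from 71.2, 78.6 and 75.5 CPM to 216, 180 and 173 CPM (1.34 ± 0.073, adjusted p 3.4e-13). The highest values of both genes, 80.0 and 216 CPM, were in the library that stood apart. Herpud1 rose by 1.23 ± 0.054, and the disulfide isomerases Pdia4, Pdia6 and Pdia3 by 1.20 ± 0.064, 1.10 ± 0.061 and 0.47 ± 0.045. The large chaperones Hyou1 and Hsp90b1 rose by 1.07 ± 0.048 and 0.73 ± 0.043, Sdf2l1 by 1.10 ± 0.082 and Calr, the lectin chaperone calreticulin, by 0.31 ± 0.061. Atf6, the sensor gene, had the smallest rise (0.31 ± 0.085, adjusted p 0.0039) and overlapped between the groups, at 99.0, 94.7 and 95.0 CPM against 95.1, 131 and 131 CPM. Its call was lost when only both groups were fitted (adjusted p 0.068).

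**Figure D2:**
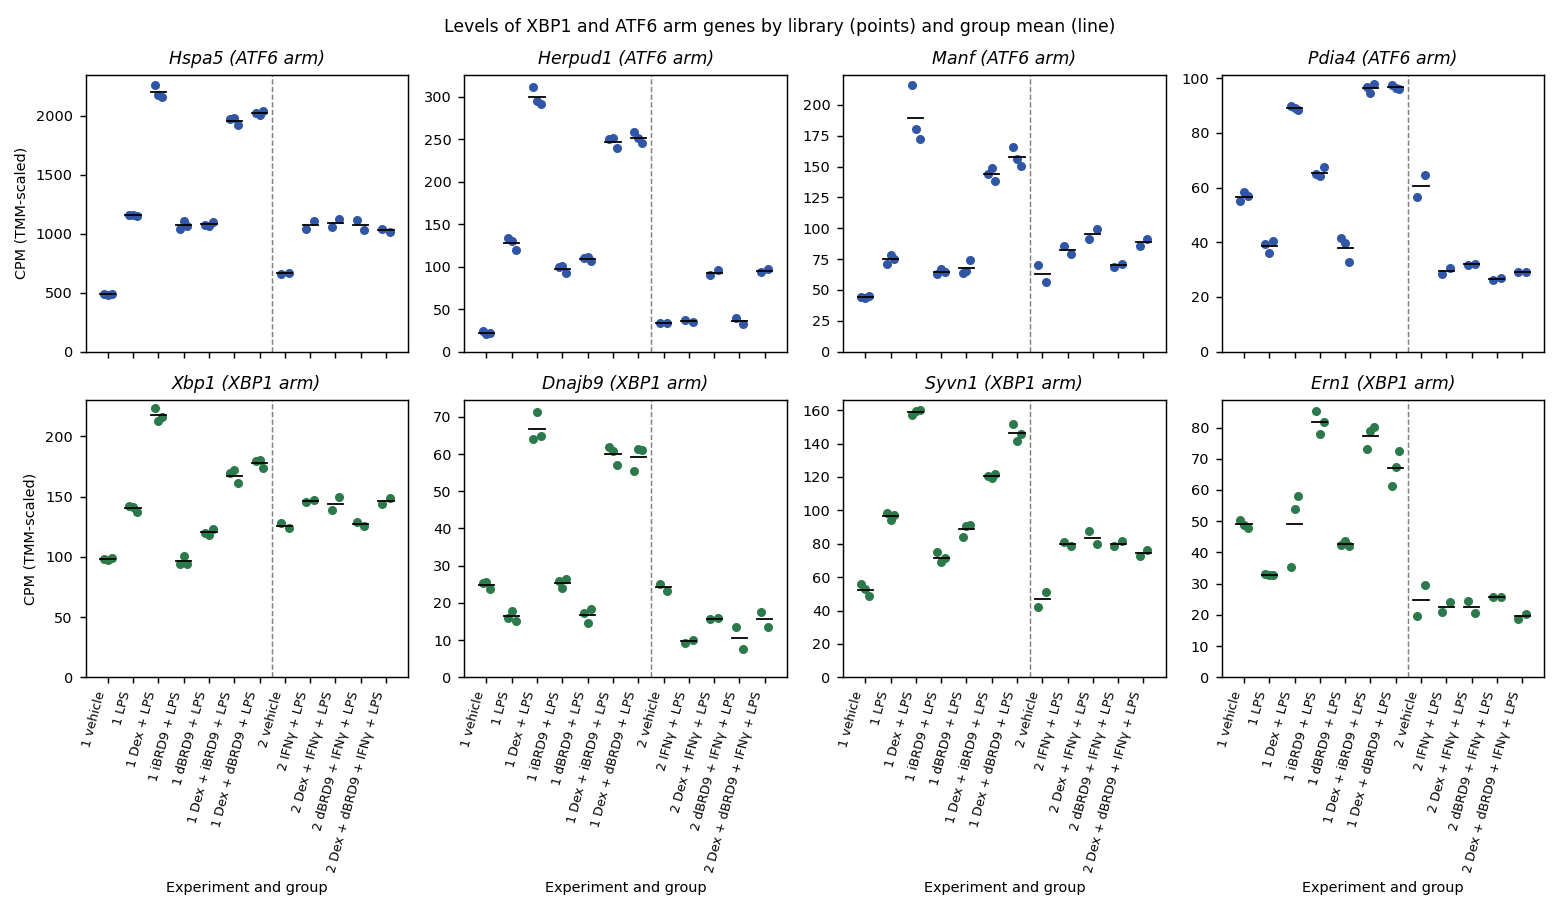
CPM of XBP1 and ATF6 arm genes in each library (points) by group, with group means as lines. The 3 Dex + LPS libraries of Dnajb9, at 64.0 to 71.3, lie above all LPS libraries, at 15.3 to 17.8, while in experiment 2 the Dex + IFNγ + LPS libraries are at 15.6 and 16.0 against 9.23 and 10.1.

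In the ATF4 arm the direction with Dex differed gene by gene. Atf3 was at 768, 802 and 785 CPM with LPS and 150, 133 and 130 CPM with Dex + LPS, a log2 fold change of -2.51 ± 0.052 (adjusted p 1.6e-20) that took it far below the vehicle libraries at 576 to 606 CPM. The serine enzymes went opposite ways: Psat1, the transaminase of the pathway, fell from 56.6, 55.1 and 55.3 CPM to 20.5, 21.8 and 18.9 CPM (-1.45 ± 0.084, adjusted p 1.0e-12), and Shmt2, the mitochondrial serine hydroxymethyltransferase, fell by 0.82 (SE 0.091), while Phgdh rose by 0.90 ± 0.15. Eif2ak3, lowered by LPS, rose to 27.3, 33.3 and 32.8 CPM (1.16 ± 0.079, adjusted p 1.9e-11), a range that contains the vehicle values. Nupr1 rose by 1.34 ± 0.11, Atf5 by 0.94 ± 0.10, Ppp1r15a by 0.68 ± 0.063, Ddit3 by 0.52 ± 0.14 and Atf4 by 0.31 ± 0.057. Nupr1 at 177 CPM and Ddit3 at 21.7 CPM were highest in the library that stood apart, against 117 to 118 and 13.5 to 14.0 CPM in the other Dex + LPS libraries. Sesn2 fell by 0.44 (SE 0.091) and Asns fell by 0.27 (SE 0.096, adjusted p 0.02), the latter without a call when the second LPS library or the third Dex library was left out (adjusted p up to 0.16). Trib3 (0.47 ± 0.21), Chac1 (0.04 ± 0.33) and Ddit4 (0.24 ± 0.19) did not pass the test.

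**Figure D3:**
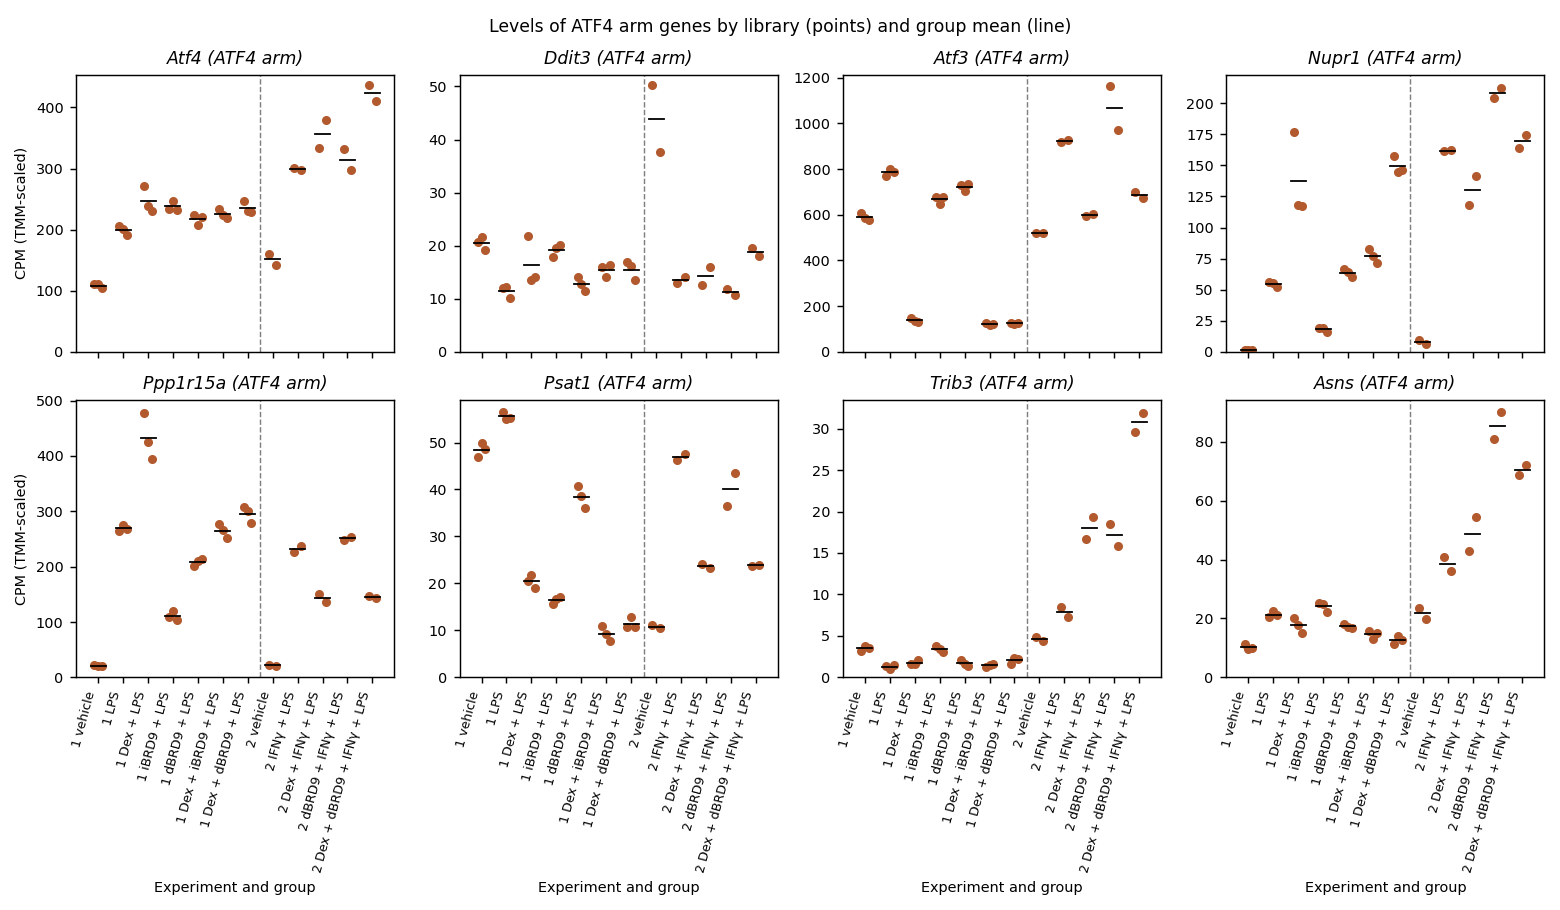
CPM of ATF4 arm genes in each library (points) by group, with group means as lines. Atf3 lies at 115 to 150 in every Dex library of experiment 1 against 576 to 802 in the others, but at 592 and 605 with Dex + IFNγ + LPS in experiment 2.

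Other genes of these pathways, from lists chosen by function, were counted in the same way. Like the members, these lists were chosen with earlier results of these data known, so they are not independent support. With Dex on top of LPS 27.9% of all genes tested rose and 27.5% fell (median 0.01). Of 39 tested genes of ER folding, export and degradation outside the members, 28 rose and 1 fell with Dex (median 0.35), among them the thioredoxin-like Txndc11 (0.94 ± 0.056), the COPII coat gene Sec24d (0.94 ± 0.086) and Selenos (0.84 ± 0.062). Of 33 further ATF4 targets 7 rose and 10 fell (median -0.09): the amino acid carriers Slc7a5 and Slc1a5 fell by 1.87 (SE 0.12) and 1.08 (SE 0.067), and the transcription factor genes Jdp2 and Cebpg rose by 1.67 ± 0.062 and 1.04 ± 0.049. Of 14 eIF2 kinases and regulators 5 rose and 4 fell, with Eif2ak2 (PKR), an interferon-induced kinase, lowest at -1.48 ± 0.085. With LPS against vehicle the ER folding list had 21 higher and 6 lower of 39 (median 0.24), and the further ATF4 targets 19 and 6 of 33 (median 0.41). Of all genes tested 36.1% rose and 39.3% fell with LPS (median -0.05). These lists were not counted with library totals alone, under which the all-gene median with LPS was -0.56.

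iBRD9 before LPS lowered a set of LPS-induced ATF4 arm genes and 8 of 12 ATF6 arm genes, and raised the sensor Ern1. Against LPS alone 9 of 34 members rose and 16 fell, where 31.4% of all genes tested rose and 30.5% fell. In the ATF6 arm 2 rose and 8 fell of 12 (median -0.24), in the XBP1 arm 2 and 2 of 7 (-0.10) and in the ATF4 arm 5 and 6 of 15 (0.08), against a median of 0.01 over all genes. With library totals alone the members called were 12 higher and 12 lower, with the median of all genes at 0.14, and the ATF6 arm had 3 higher and 5 lower. Leaving out single libraries gave 6 to 8 lower in that arm, with 6 without the first iBRD9 library. The sum of 8 neutrophil markers moved with iBRD9, from 17.0 to 24.1 CPM with LPS to 0.984 to 2.37 CPM, and that of the plasma cell list from 182 to 193 CPM to 43.6 to 48.5 CPM. Of the neutrophil list Ly6g was at or under 0.0914 CPM in every library of experiment 1. S100a8, S100a9 and Ngp of that list reached 6.85, 9.04 and 6.23 CPM. The part of these transcripts in the result was not tested.

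Psat1 was at 15.6, 16.7 and 17.1 CPM with iBRD9 + LPS, far below the LPS libraries at 55.1 to 56.6 CPM (log2 fold change -1.76 ± 0.084, adjusted p 3.4e-14). Nupr1 fell to 19.1, 19.0 and 15.9 CPM (-1.59 ± 0.12, adjusted p 1.6e-10) and Ppp1r15a to 110, 119 and 103 CPM (-1.28 ± 0.064, adjusted p 8.3e-14), both between the vehicle and the LPS libraries. Atf5 fell by 1.28 (SE 0.11) and Phgdh by 1.08 (SE 0.17). Xbp1 fell from 137 to 142 CPM to 93.7, 101 and 94.1 CPM (-0.54 ± 0.044, adjusted p 3.7e-10), close to the vehicle libraries at 97.0 to 98.7 CPM. Ern1, whose product splices that mRNA, rose to 85.4, 77.9 and 81.7 CPM (1.31 ± 0.11, adjusted p 6.3e-10), above the vehicle libraries at 47.7 to 50.5 CPM. Trib3 rose by 1.41 ± 0.19, Pdia4 by 0.76 ± 0.064, Ddit3 by 0.74 ± 0.14, Dnajb9 by 0.63 ± 0.081 and Sesn2 by 0.52 ± 0.084. These 5 genes were among the 9 that LPS had lowered. Both comparisons use the same LPS libraries, so they are not independent of each other. The chaperone genes that fell did so by little, from -0.11 ± 0.036 for Hspa5, which was at 0.02 with library totals alone, to -0.39 ± 0.084 for Sdf2l1. Hspa5, Manf and Creld2 lost the call when single libraries were left out, without the first iBRD9 library for Hspa5 (adjusted p 0.074), the second LPS or first iBRD9 library for Manf (up to 0.066) and the third LPS or second iBRD9 library for Creld2 (up to 0.097).

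dBRD9 before LPS gave smaller differences. Of 34 members 2 rose and 7 fell against LPS, where 6.64% of all genes tested rose and 9.97% fell. Macrophage markers summed to 13400 to 13900 CPM with dBRD9 against 16100 to 16800 CPM, and their part was not tested. Phgdh fell from 4.68, 4.52 and 3.61 CPM to 2.44, 2.88 and 1.79 CPM (log2 fold change -0.86 ± 0.18, adjusted p 0.0012), Psat1 fell from 55.1 to 56.6 CPM to 40.7, 38.5 and 36.1 CPM (-0.53 ± 0.079, adjusted p 3.2e-05), and Atf5 fell by 0.49 (SE 0.11). In each of the 3 genes the dBRD9 libraries lay below all LPS libraries, where 37.9% of all genes did not overlap between the groups. Ppp1r15a fell by 0.37 (SE 0.063), Herpud1 by 0.23 (SE 0.054) and Xbp1 by 0.22 (SE 0.044). Asns (-0.30 ± 0.097), Ern1 (0.37 ± 0.11) and Sesn2 (0.25 ± 0.087) were called with adjusted p of 0.036, 0.024 and 0.049. Asns and Ern1 lost the call without any 1 of the 6 libraries (up to 0.16 and 0.073) and Sesn2 without any 1 except the third LPS library (up to 0.23). The count itself depended on which libraries set the spread: 20 members were called (5 higher, 15 lower) when only both groups were fitted, and 19 (5 higher, 14 lower) without both libraries that stood apart, which are in neither group. The number of all genes called moved with it, from 2103 to 3305 and 3465. Nupr1, which iBRD9 lowered, was at 66.6, 64.2 and 59.9 CPM with dBRD9 against 52.2 to 56.2 CPM with LPS (0.22, 95% interval -0.02 to 0.46, adjusted p 0.22).

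The doses of iBRD9 and dBRD9 differ and their libraries share the LPS controls, so the values stand side by side. Psat1, Ppp1r15a, Atf5, Phgdh, Herpud1 and Xbp1 fell and Ern1 and Sesn2 rose with each compound, while Asns was at -0.30 with dBRD9 and 0.18 ± 0.093 with iBRD9 (adjusted p 0.1). Between both compound groups themselves 9 of 34 members were higher and 12 lower with iBRD9, where 28.3% of all genes were higher and 27.2% lower. The difference was -1.82 (95% interval -2.07 to -1.56) for Nupr1, -1.23 (-1.40 to -1.05) for Psat1, 0.94 ± 0.11 for Ern1 and 1.01 (0.64 to 1.38) for Trib3. For Asns it was 0.47 (0.28 to 0.67, adjusted p 1.9e-04) and for Hspa5 -0.01 (-0.09 to 0.06).

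When Dex was present, both compounds mainly lowered members. Of 34 members 2 rose and 21 fell with Dex + iBRD9 + LPS against Dex + LPS, where 16.7% of all genes rose and 18.0% fell, and 10 of 12 ATF6 arm genes were among those that fell (median -0.26, 0.01 for all genes). Creld2 fell from 80.0, 61.3 and 55.6 CPM to 43.6, 45.6 and 42.6 CPM (-0.58 ± 0.092, adjusted p 3.2e-05), still above the LPS libraries at 22.5 to 26.5 CPM. The 80.0 CPM was in the Dex + LPS library that stood apart, so the size of this fall rests in part on that library. Pdia6 fell by 0.51 (SE 0.06), Sdf2l1 by 0.53 (SE 0.08), Manf by 0.40 (SE 0.071) and Hspa5 by 0.17 (SE 0.036). Psat1 fell again, from 18.9 to 21.8 CPM to 10.9, 9.16 and 7.77 CPM (-1.14 ± 0.097), and so did Atf5 (-1.16 ± 0.10), Nupr1 (-0.83 ± 0.11) and Ppp1r15a (-0.71 ± 0.063). Ern1 rose by 0.66 ± 0.11 and Sesn2 by 0.35 ± 0.092. Neutrophil markers summed to 11.4 to 14.0 CPM with Dex + LPS and 4.96 to 6.85 CPM with Dex + iBRD9 + LPS. Macrophage markers went from 26900 to 27300 CPM to 21000 to 22700 CPM, and the plasma cell list from 34.9 to 47.1 CPM to 21.8 to 24.5 CPM. The part of these lists was not tested. Without both libraries that stood apart 24 members were called, 2 of them higher.

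With Dex + dBRD9 + LPS against Dex + LPS 2 members rose and 13 fell, where 6.51% of all genes rose and 9.28% fell. Atf5 fell from 89.4, 65.9 and 69.2 CPM to 47.3, 38.4 and 36.6 CPM (-0.88 ± 0.10, adjusted p 1.7e-06). The highest value of Atf5 in each group, 89.4 and 47.3 CPM, was in the library that stood apart. Psat1 fell by 0.84 (SE 0.093), Phgdh by 0.68 (SE 0.14), Ppp1r15a by 0.55 (SE 0.063) and Asns by 0.48 (SE 0.10). Sesn2 rose by 0.43 ± 0.091 and Ern1 by 0.45 ± 0.11. When only both groups were fitted 5 members were called, all lower, and the number of all genes called went from 1999 to 579. Same-numbered libraries deviated together in this comparison, and with the replicate number as a block the count stayed at 15. Without both libraries that stood apart 16 were called, 3 of them higher. The plasma cell list went from 34.9 to 47.1 CPM with Dex + LPS to 25.9 to 27.6 CPM with Dex + dBRD9 + LPS. Macrophage markers went from 26900 to 27300 CPM to 23600 to 26700 CPM, and the part of these lists was not tested. All 9 members called with dBRD9 alone were called in the same direction on top of Dex, in comparisons that share no library. Of all genes called with dBRD9 alone 43.7% were called on top of Dex, 98.3% of these in the same direction. For iBRD9 18 of the 25 members called without Dex were also called with it, all 18 in the same direction. Of all genes called with iBRD9 alone 45.9% were, 95.0% of these in the same direction.

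The interaction of Dex and iBRD9, which is the log2 fold change of iBRD9 with Dex minus that without it, was called for 14 of 34 members, 4 of them above and 10 below 0, where 17.3% of all genes were above and 16.0% below. Of the genes that iBRD9 raised in LPS-treated cells, 5 had the most negative interactions, a lower fold change with Dex than without it: the interaction was -1.68 ± 0.28 for Trib3 (adjusted p 6.6e-05), -0.83 ± 0.19 for Ddit3, -0.78 ± 0.11 for Dnajb9, -0.65 ± 0.089 for Pdia4 and -0.65 ± 0.15 for Ern1. Trib3 was at 3.80, 3.40 and 3.04 CPM with iBRD9 + LPS against 1.06 to 1.46 CPM with LPS, and at 1.30, 1.49 and 1.64 CPM with Dex + iBRD9 + LPS against 1.60, 1.65 and 2.10 CPM with Dex + LPS. Nupr1, Psat1 and Ppp1r15a, which iBRD9 lowered, fell less with Dex (0.76 ± 0.17, 0.62 ± 0.13 and 0.58 ± 0.089). For Dex and dBRD9 no member had a called interaction by edgeR or DESeq2, where 3.39% of all genes did. At an unadjusted p under 0.05 there were 4 of 34, and Atf5 (-0.39 ± 0.15) was called without the filter on low counts (adjusted p 0.021) and without both libraries that stood apart (-0.37, 0.011).

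**Figure D4:**
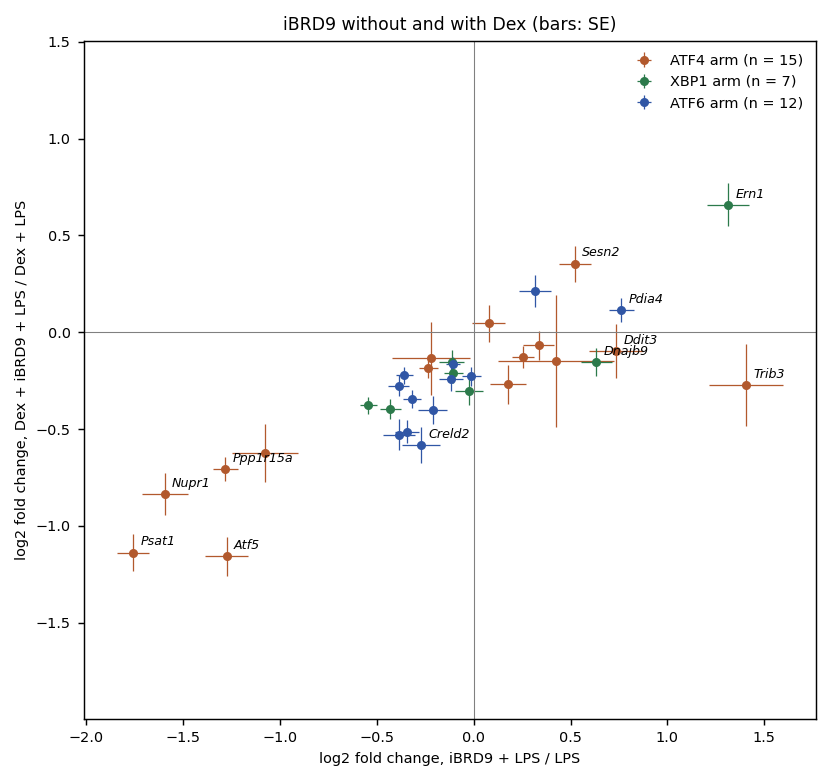
Log2 fold change of each tested member with iBRD9 without Dex (x axis) and with Dex (y axis), with SE bars and colours for the arms. Ern1 is raised on both axes (1.31 and 0.66), while Trib3 is at 1.41 on the x axis and -0.27 on the y axis.

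In experiment 2, IFNγ + LPS raised 14 and lowered 13 of 35 members against vehicle, where 32.8% of all 13313 genes tested rose and 35.6% fell (median 0.05 for the members and -0.11 for all genes). The ATF4 arm had 9 higher and 5 lower of 16 (median 0.80) and the ATF6 arm 3 higher and 6 lower of 12 (-0.16). Nupr1 rose from 9.32 and 6.08 CPM to 161 and 163 CPM (4.40 ± 0.17, adjusted p 9.9e-13), Ppp1r15a from 23.0 and 20.6 CPM to 227 and 238 CPM (3.42 ± 0.11, adjusted p 2.0e-13), and Psat1 from 11.2 and 10.4 CPM to 46.2 and 47.5 CPM (2.11 ± 0.13, adjusted p 5.5e-10). Chac1 rose by 2.72 ± 0.30 and Atf4 by 0.99 ± 0.11. Ddit3 fell from 50.3 and 37.6 CPM to 13.0 and 14.1 CPM (-1.70 ± 0.16), Eif2ak3 fell by 1.68 (SE 0.17), Dnajb9 by 1.32 (SE 0.21), Pdia4 by 1.04 (SE 0.12) and Sdf2l1 by 0.98 (SE 0.15). With library totals alone 6 members rose and 22 fell, with the median of all genes moving from -0.11 to -0.76. In that scaling Nupr1, Ppp1r15a, Psat1 and Chac1 still rose and Ddit3, Eif2ak3, Dnajb9 and Pdia4 still fell. The T and NK cell list rose to 95.7 to 108 CPM in these libraries through Lck, with Cd3e and Cd3g at 0, and its part was not tested.

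Across the experiments 23 members were called with both stimuli, 16 in the same direction and 7 in opposite directions. Of all genes tested in both experiments 58.3% were called with both stimuli, 91.4% of these in the same direction. Opposite were Atf5, Atf6, Hsp90b1, Hyou1, Pdia3, Phgdh and Trib3. Of these Hsp90b1, Hyou1 and Pdia3 were below 0 with both stimuli when libraries were scaled by totals alone. Atf6 fell by 0.43 with LPS and rose by 0.86 ± 0.11 with IFNγ + LPS, and Trib3 fell by 1.44 and rose by 0.77 ± 0.17. Herpud1, which LPS raised to 120 to 133 CPM, was at 36.9 and 34.7 CPM with IFNγ + LPS against 33.6 and 33.7 CPM in vehicle (0.09 ± 0.12, adjusted p 0.53). The tables were processed separately and IFNγ is not the only difference between the experiments, so the difference between them was not tested.

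Dex in experiment 2 raised 9 and lowered 3 of 35 members against IFNγ + LPS, where 10.7% of all genes rose and 9.21% fell. The sums of several marker lists of other cell types were lower with Dex. The neutrophil list went from 35.8 to 38.0 CPM to 12.5 to 18.1 CPM, and the T and NK cell list, almost all Lck, from 95.7 to 108 CPM to 54.4 to 61.6 CPM. The plasma cell list, almost all Sdc1, went from 27.7 to 27.8 CPM to 14.7 to 17.0 CPM. The stromal list went from 60.0 to 66.4 CPM to 38.1 to 45.7 CPM. Across experiment 2 its genes Col1a1, Col1a2 and Col3a1 were at 12.5 to 31.8, 14.2 to 25.6 and 4.02 to 9.17 CPM. Dcn, Lum and Pdgfra were under 1 CPM. In experiment 1 the stromal sum was at most 0.385 CPM. Of the neutrophil list Ly6g was at 0 in every library of experiment 2. S100a8, S100a9 and Ngp of that list reached 11.4, 11.1 and 12.1 CPM. The part of these lists was not tested. In the ATF6 arm 3 of 12 rose and in the XBP1 arm 1 of 7, and none fell. Herpud1 rose from 36.9 and 34.7 CPM to 89.7 and 95.7 CPM (1.37 ± 0.12, adjusted p 6.2e-07), while Hspa5 was at 1040 and 1110 CPM without Dex and 1050 and 1130 CPM with it (0.02 ± 0.10, adjusted p 0.93). The ATF4 targets Chac1 (1.55 ± 0.21), Trib3 (1.19 ± 0.16), Phgdh (1.06 ± 0.21) and Sesn2 (1.04 ± 0.14) rose, as did Atf5 (0.61 ± 0.13). Psat1 fell by 0.98 (SE 0.13), Ppp1r15a by 0.70 (SE 0.10) and Atf3 by 0.63 (SE 0.11). Dnajb9 (0.71 ± 0.22, adjusted p 0.028), Hyou1 (0.37 ± 0.12, 0.042) and Atf6 (0.35 ± 0.11, 0.032) were the weakest calls. Dnajb9 and Hyou1 lost the call without any 1 of the 4 libraries (adjusted p up to 0.17 and 0.3), Atf6 without any 1 except the second Dex library (up to 0.37), and Atf5 without the second IFNγ + LPS library (0.051). With the replicate number as a block Hyou1 and Atf6 were not called (0.058 and 0.056). Of other pathway genes Creb3l1, an ER-membrane relative of ATF6, rose by 3.66 ± 0.20 and Cebpb by 1.89 ± 0.17.

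**Figure D5:**
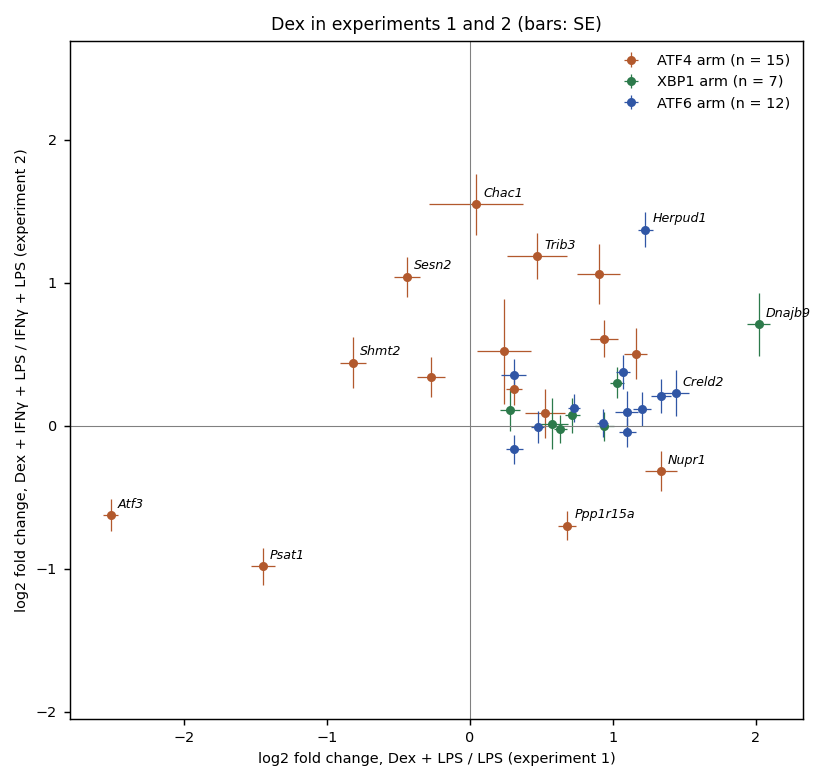
Log2 fold change with Dex in experiment 1 (x axis) and experiment 2 (y axis) for each member tested in both, with SE bars and colours for the arms. Herpud1 is raised on both axes (1.23 and 1.37) and Psat1 lowered on both (-1.45 and -0.98), while Hspa5 is at 0.93 and 0.02 and Sesn2 at -0.44 and 1.04.

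Of the members tested in both experiments 10 were called with Dex in each, 8 in the same direction. Of all genes 16.5% were called in each, 84.9% of these in the same direction. Herpud1, Dnajb9, Hyou1, Atf6, Phgdh and Atf5 rose and Psat1 and Atf3 fell both times. Ppp1r15a rose in experiment 1 (0.68 ± 0.063) and fell in experiment 2 (-0.70 ± 0.10), and Sesn2 did the reverse (-0.44 ± 0.091 and 1.04 ± 0.14). The 95% intervals with Dex in experiment 2 were -0.20 to 0.23 for Hspa5 and -0.05 to 0.46 for Manf, beside 0.93 and 1.34 in experiment 1.

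dBRD9 in experiment 2 raised 3 of 35 members and lowered none, where 0.819% of all genes rose and 1.01% fell, and all 3 were ATF4 arm genes. Several marker sums of other cell types were lower with dBRD9. The neutrophil list was at 18.8 to 21.1 CPM and the T and NK cell list, almost all Lck, at 59.9 to 70.4 CPM. The stromal list was at 48.5 to 49.6 CPM, and the B cell list at 1.32 to 1.46 CPM against 2.49 to 3.32 CPM. The plasma cell list was higher, at 35.4 to 37.2 CPM against 27.7 to 27.8 CPM. The part of these lists was not tested. Asns was at 40.8 and 36 CPM with IFNγ + LPS and 80.9 and 90.1 CPM with dBRD9 (1.15 ± 0.14, adjusted p 2.4e-04), Trib3 went from 8.44 and 7.31 CPM to 18.5 and 15.8 CPM (1.12 ± 0.16, adjusted p 0.0013), and Sesn2 from 16.9 and 16.4 CPM to 31.4 and 27.4 CPM (0.82 ± 0.14, adjusted p 0.0054). The groups did not overlap in these 3 genes, nor in 43.3% of all genes. Sesn2 lost the call without any 1 library except the second dBRD9 library (adjusted p up to 0.096). Of 32 further ATF4 targets 5 rose and none fell, among them the arginine carrier Slc7a1 (1.17 ± 0.12), the mitochondrial folate enzyme Mthfd2 (0.92 ± 0.11) and the cystine carrier Slc7a11 (0.62 ± 0.13). Atf4 itself was at 331 and 298 CPM with dBRD9 and 301 and 298 CPM without it (0.07 ± 0.11, adjusted p 0.88). In experiment 1 Asns had fallen with dBRD9 (-0.30 ± 0.097), and Trib3 had not passed the test (0.40, 95% interval -0.04 to 0.84).

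On top of Dex, dBRD9 in experiment 2 raised Trib3 from 16.7 and 19.3 CPM to 29.6 and 31.9 CPM (0.77 ± 0.15, adjusted p 0.012). Trib3 was the only member called, where 0.233% of all genes rose and 1.16% fell. The T and NK cell list, almost all Lck, was at 39.4 to 39.9 CPM with dBRD9 against 54.4 to 61.6 CPM, and its part was not tested. The call of Trib3 was lost without the first Dex library or either Dex + dBRD9 library (adjusted p up to 0.19). Asns (0.54 ± 0.14, adjusted p 0.07) and Sesn2 (0.49 ± 0.13, 0.087) did not pass the test there. No member had a called interaction of Dex and dBRD9 in experiment 2 by edgeR or DESeq2, where 0.00751% of all genes did, and 2 of 35 had an unadjusted p under 0.05.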

How the data were processed

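RNA-seq counts per gene were deposited by the authors as a table for each experiment, with whole numbers per Ensembl identifier and library. Per the submitters' processing notes fastp, STAR, DESeq2 and the mouse genome mm10 were used. Versions, the counting step, annotation and strand were not given in the sources used here. Symbols and exon lengths came from GENCODE M21, in which 34490 (97.77%) and 54409 (99.77%) of the identifiers have a symbol. Member exons overlapped other genes by at most 10.3% of their length (Hsp90b1).

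The members and lists were chosen with earlier results of these data known. All 36 members could be named. Of each other pathway list up to 4 called genes with the largest change and at least 10 CPM could be named per comparison, and the markers and Dex targets named were taken from written lists. Sequences of at most 6 members with a match were shown.

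Each experiment was fitted separately with edgeR 4.0.16 (R 4.3.3, limma 3.58.1), as a quasi-likelihood model with 1 coefficient for each group. The filter filterByExpr (minimum count 10, minimum total 15) left 12662 and 13313 genes, and libraries were scaled by TMM. The biological coefficient of variation was 6.79% with 14 residual degrees of freedom and 10.61% with 5. Calls were made where the p adjusted by Benjamini-Hochberg over all tested genes was under 0.05. Every adjusted p in the text is from this edgeR test unless named otherwise. CPM are counts per M (mega) of the TMM-scaled library total. Experiment 2 had 2 libraries per group and 5 residual degrees of freedom, against 3 libraries and 14 in experiment 1. The part of this difference in the fewer calls of experiment 2 was not tested.

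Alternatives were DESeq2 1.42.0, library totals alone, no filter, only the groups compared, a replicate block, each library left out, and both libraries that stood apart left out. Deviations of same-numbered libraries from their group means correlated across genes at 0.541, 0.205 and 0.302 in Dex + dBRD9 + LPS against Dex + LPS, so there the numbers were taken to pair the libraries. In the other comparisons of experiment 1 not every pair was above 0.1.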

Additional observations from a re-analysis of the deposited data

Results flagged for a closer look

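Differences between the fold changes of a compound in different settings were collected for a closer look. For iBRD9 with and without Dex the interaction was tested by edgeR within experiment 1. It was below 0 for Trib3 (-1.68), Ddit3 (-0.83), Dnajb9 (-0.78), Ern1 (-0.65), Pdia4 (-0.65), Asns (-0.45), Eif2ak3 (-0.40), Atf4 (-0.39), Sec61b (-0.28) and Hyou1 (-0.21). It was above 0 for Nupr1 (0.76), Psat1 (0.62), Ppp1r15a (0.58) and Xbp1 (0.17). The kinase gene Eif2ak3 was at 0.34 with iBRD9 without Dex and -0.07 with it, and Atf4 at 0.26 and -0.13. The calls of Xbp1 (main adjusted p 0.042) and Sec61b (0.039) were lost without most single libraries (adjusted p up to 0.11 for each), and Sec61b was at -0.18 without the first Dex + LPS library. Asns was not called without the second Dex + iBRD9 + LPS library (adjusted p 0.052), nor Hyou1 without the third LPS library (0.054).

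Other members moved in opposite directions in experiments 1 and 2, a difference that was not tested because the tables were processed separately. With Dex the log2 fold change of Ppp1r15a was 0.68 in experiment 1, where it went from 265 to 275 CPM up to 395 to 478 CPM, and -0.70 in experiment 2, where it went from 227 and 238 CPM down to 150 and 136 CPM. Sesn2 was at -0.44 and 1.04 in the same comparisons. With dBRD9 Asns was at -0.30 in experiment 1, a call lost without any 1 library, and at 1.15 in experiment 2.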

How the results depend on the processing

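Of 5811 alternative values of single members 5483 either kept direction and call or were called in neither fit, where direction was not compared. Another 185 lost the call, 124 gained it, and 19 changed direction with a call in the main or the alternative fit. Those 19 all came from library totals alone, and the cause was not tested. With LPS they were Atf3 (-0.10), Psat1 (-0.32), Shmt2 (-0.47), Dnajc3 (-0.47), Edem1 (-0.34), Hsp90b1 (-0.41), Calr (-0.23), Pdia3 (-0.38), Pdia6 (-0.01), Hyou1 (-0.18) and Creld2 (-0.40). With iBRD9 they were Hspa5 (0.02) and Hyou1 (0.12). With IFNγ + LPS they were Sesn2 (-0.51), Xbp1 (-0.43), Edem1 (-0.30), Calr (-0.60), Manf (-0.26) and Herpud1 (-0.56). The number of members called with dBRD9 went from 9 to 20 when only the groups compared were fitted and to 19 without both libraries that stood apart. For Dex + dBRD9 it went from 15 to 5 with only the groups compared. The interaction of Dex and dBRD9 in experiment 1 went from 0 to 1 without the filter, without both libraries that stood apart, and without the first Dex + dBRD9 library. For Dex + dBRD9 in experiment 2 it went from 1 to 2 with DESeq2, 2 without the filter and 3 with only the groups compared. Leaving out single libraries gave 27 to 28 members called with LPS, 30 to 31 with Dex, 23 to 25 with iBRD9, 6 to 7 with dBRD9, 22 to 25 and 11 to 19 with iBRD9 and dBRD9 on Dex, 16 to 21 between the compounds, and 11 to 16 and 0 to 1 for the interactions. In experiment 2 the ranges were 22 to 26 with IFNγ + LPS, 8 to 10 with Dex, 2 to 3 with dBRD9, 0 to 2 with dBRD9 on Dex and 0 to 0 for the interaction. With the replicate number as a block, in the order of these ranges, 29, 31, 25, 8, 26, 15, 23, 14 and 0 members were called in experiment 1 and 27, 10, 3, 1 and 0 in experiment 2. Same-numbered libraries were correlated at -0.136 for Dex in experiment 2. A block with crossed numbers, chosen after seeing the data, called 13 members there against 12. The 2 libraries per group limit the precision of experiment 2, and Chac1, Trib3 and Phgdh rest on few counts in experiment 1.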
